A study of Mus musculus with 6 samples.

Results

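Aminoacyl-tRNA synthetases are the enzymes that join each amino acid to its transfer RNA. The genes described here are the rows of the deposited table whose Ensembl identifier carries, in the GENCODE M21 annotation, a protein-coding symbol of 1 capital letter followed by ars or ars2, or the symbol Eprs, Farsa or Farsb. This rule found 37 of the 14864 genes in the table, of which 20 encode cytosolic enzymes and 17 mitochondrial ones, and all 37 passed the filter on low values. RNA was measured by sequencing in marginal zone B cells, a splenic B cell subset at the border of the white pulp, which were flow-sorted from spleens of C57BL/6 mice at 8 weeks of age. The labels give 3 wild-type (WT) libraries and 3 labelled CK2α-cKO, that is, with the catalytic CK2α subunit of the protein kinase CK2 deleted conditionally (cKO), and the comparison asks how expression differs without that subunit. Neither the Cre line nor the deleted exons, and no batch or sex, were found in the labels. They do not say whether every library had its own mouse, so a p-value reflects library spread that may be partly technical.

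A synthetase first activates its amino acid with ATP and then passes it to the matching tRNA, so the ribosome reads a codon correctly only if this step was right. The cytosol and the mitochondrion each need a full set of charged tRNAs. Most amino acids have a separate nuclear gene for each compartment, while Kars and Gars each make both the cytosolic and the mitochondrial enzyme for lysine and glycine. In the cytosol several synthetases are held together in the multisynthetase complex by the scaffold proteins encoded by Aimp1, Aimp2 and Eef1e1. Many cytosolic synthetase genes are known targets of ATF4, the transcription factor of the amino acid stress response, and of MYC.

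The libraries held 18778776 to 23503756 reads, recovered from the deposited values as explained under processing, and the member with the fewest had 126 reads in its lowest library. Deposited values are called normalised reads below. The 9 marginal zone markers were all present, at a summed 115758 to 124676 in WT and 119936 to 149667 in cKO. Of them 5 rose at a limma adjusted p below 0.05, where 5.08% of all genes rose and 4.97% fell. Of the 6 follicular B cell markers 4 fell, with sums of 39105 to 42733 in WT and 32270 to 39493 in cKO. Cxcr5 lay in the other direction, with means of 7631 ± 747 in WT and 9117 ± 620 in cKO (limma adjusted p = 0.0547). Fcer2a overlapped between groups and was not called (limma adjusted p = 0.25). Of the T cell markers, 3 of 6 were in the table (Cd4, Cd8a and Lck), at a summed 627 to 723 and 321 to 462. Most of this sum was Lck, with means of 631 in WT and 369 in cKO. Cd4 had 23 and 13.3, and Cd8a 18.2 and 7.86. Erythroid markers varied most, from 666 to 11036 and from 789 to 4940. None of the marker genes in the table was at 0 in any library. Immediate early genes, which also respond to the handling of cells, summed to 57151 to 71657 in WT and 41538 to 45422 in cKO. Of these 10 genes 5 fell at a limma adjusted p below 0.05. The other 5, among them Egr1 and Dusp1, overlapped between groups. The part of these differences in the results below was not tested. The targeted gene Csnk2a1 was not lower in cKO, with a WT mean of 3957 ± 105 and a cKO mean of 4045 ± 87.6 normalised reads (SD, n = 3; limma adjusted p = 0.734). A count per gene does not resolve a deleted exon, so the directions below are those of the libraries as labelled.

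Cytosolic synthetase genes lay slightly higher in cKO almost throughout, but few differences passed the test. Of the 20 genes 19 had a log2 difference (cKO minus WT, on log2(value + 1)) above 0, against 49.8% of the 14855 genes tested. Kars and Yars rose, and none fell. Among all genes 5.08% rose and 4.97% fell by the same rule, an adjusted p below 0.05 in limma with Benjamini-Hochberg adjustment over all genes, so 2 calls among 20 genes are near the background. In these bulk samples a changed share of cells expressing a gene and a changed amount of RNA per cell cannot be told apart. The median log2 difference of the 20 genes was 0.14, beside -0.0009 for all genes tested. In 11 genes all 3 cKO values lay above all 3 WT values and in 1, Vars, all lay below, where 15.9% and 15.6% of all genes did so. At an unadjusted p below 0.05, 10 of the 20 were higher and 1 was lower, beside 13.5% higher and 13.3% lower among all genes tested. The 0 falls were also 0 with edgeR and with DESeq2.

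Kars encodes lysyl-tRNA synthetase, a class II enzyme of the multisynthetase complex that is also made for the mitochondrion. In WT replicates 1, 2 and 3 it had 1971, 2230 and 2083 normalised reads, and 2728, 2640 and 2527 in the cKO libraries in the same order, which holds for all values below. Every cKO library lay above every WT library, and the gap between the groups exceeded the range within either. The log2 difference was 0.33 ± 0.06 (SE; limma adjusted p = 0.01), a rise of 25.7% with a 95% interval of the ratio of 1.14 to 1.38. Kars passed the threshold in all 16 alternative analyses, with adjusted p from 0.000453 to 0.0477. A count per gene cannot tell the cytosolic from the mitochondrial splice form. Terf2ip, a telomere gene whose start lies 75 bases from that of Kars on the other strand, gave 800 ± 47.8 in WT, 834 ± 62.3 in cKO and no call (adjusted p = 0.673).

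Yars encodes tyrosyl-tRNA synthetase, which works outside the complex. It had 773, 760 and 788 normalised reads in WT and 966, 903 and 877 in cKO, with no overlap. The log2 difference was 0.24 ± 0.07 (limma adjusted p = 0.0441), a rise of 18.2%. This call is marginal. It was lost on leaving out any 1 of the 6 libraries (adjusted p from 0.0574 to 0.126), with DESeq2 (0.0581), after rescaling without immunoglobulin genes (0.0522) and with the replicate number as a block (0.0545), although the log2 difference stayed between 0.20 and 0.27. S100pbp, whose start lies 33 bases from that of Yars on the other strand, had 1618 ± 113 and 1658 ± 69.8 normalised reads (adjusted p = 0.775).

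**Figure D1:**
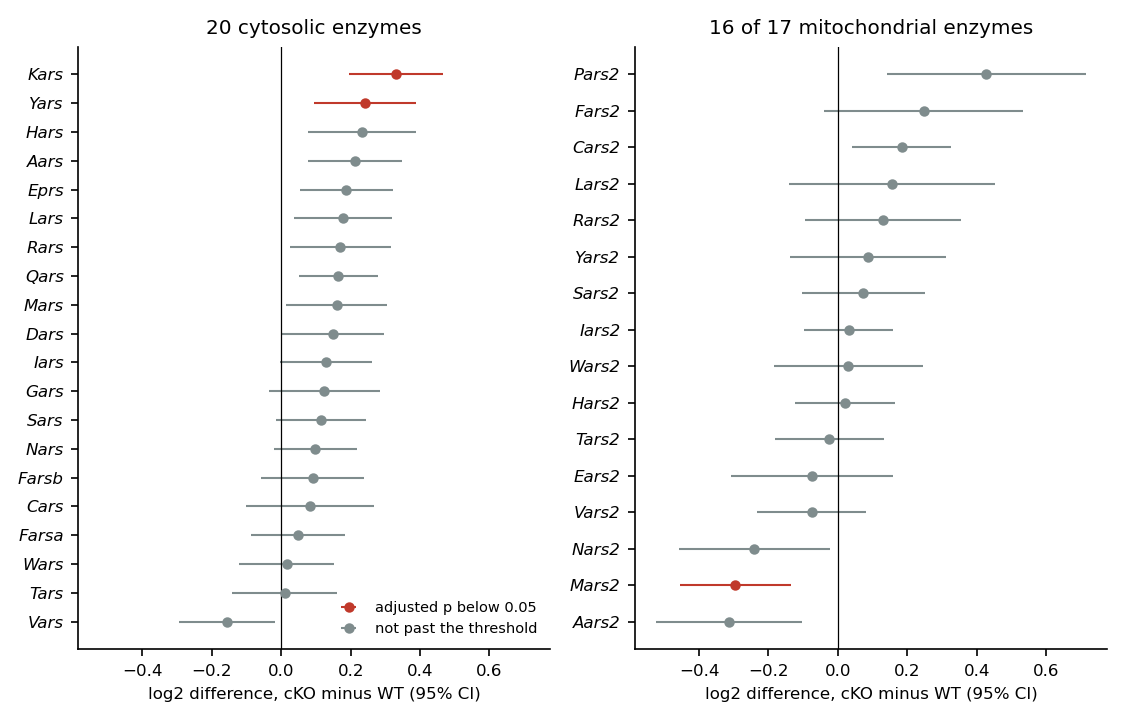
Log2 difference (cKO minus WT, 3 libraries each) of each synthetase gene with its 95% interval, cytosolic enzymes on the left and mitochondrial ones on the right (16 of the 17 are drawn). Red marks an adjusted p below 0.05, reached by Kars, Yars and Mars2. All cytosolic genes but Vars lie to the right of 0, most by less than 0.25, whereas the mitochondrial genes spread from -0.31 to 0.43.

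Next in order came Aars and Hars, the alanine and histidine enzymes. Aars had 1512, 1720 and 1588 normalised reads in WT and 1821, 1876 and 1878 in cKO, a log2 difference of 0.21 ± 0.06 (limma adjusted p = 0.053), and Hars gave 0.23 ± 0.07 (0.0604). Both groups were separate for either gene. They stood just outside the threshold, and Aars crossed it in 5 of the 16 alternatives and Hars in 3. Part of Aars (14.3% of its exon bases) lies over Exosc6 on the same strand, a gene without a row of its own among the deposited values. Of Hars 8.0% lies over Hars2 on the other strand. The strand setting of the counts is not known, so reads in either overlap may not be fully told apart.

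The enzymes of the multisynthetase complex lay in a narrow band. All 8 (Dars, Eprs, Iars, Kars, Lars, Mars, Qars and Rars) had log2 differences above 0, from 0.13 to 0.33 with a median of 0.17, and in 7 the groups did not overlap, the exception being Mars, where 15.9% of all genes had all cKO values above all WT values. Only Kars was called among them. Qars, the glutamine enzyme, had 2503, 2646 and 2525 normalised reads in WT and 2890, 2808 and 2896 in cKO (0.16 ± 0.05, limma adjusted p = 0.069). Eprs, the fused enzyme for glutamate and proline, went from 3084 ± 182 to 3511 ± 166 (0.19 ± 0.06, adjusted p = 0.0759). The 12 cytosolic genes outside the complex had a median of 0.09, with 11 above 0, and 4 without overlap upwards. Whether the genes inside and outside the complex differ was not tested.

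Of the scaffold genes, Aimp1 rose. It had 1089, 1152 and 1138 normalised reads in WT and 1400, 1286 and 1277 in cKO, a log2 difference of 0.23 ± 0.06 (limma adjusted p = 0.0435), which lost its call on leaving out any library but cKO replicate 2 (0.0703 to 0.138), after rescaling without immunoglobulin genes (0.0514) and with the replicate block (0.0579). Aimp2 had 281, 341 and 296 in WT and 440, 335 and 366 in cKO, so the groups overlapped (0.31 ± 0.12, adjusted p = 0.133), and 29.4% of its exon bases lie over Eif2ak1 on the other strand. Eef1e1 stayed between 536 and 589 in all 6 libraries (0.04 ± 0.07, adjusted p = 0.768).

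Vars, the valine enzyme, which binds the elongation factor 1 complex, stood apart in level and in direction. It had 12469, 13346 and 11910 normalised reads in WT and 11893, 11253 and 10708 in cKO. The highest cKO value lay just below the lowest WT value. The log2 difference of -0.16 ± 0.06 did not pass (limma adjusted p = 0.139), and the interval of the ratio was 0.816 to 0.987. With Vars, whose level was the highest by far, the summed value of the 20 genes overlapped between groups (42828 to 45872 in WT, 44796 to 48027 in cKO). Without Vars the sum of the 19 others did not (30360 to 32525 against 34088 to 36133). Vars was left out with its values known, as the only gene of the 20 with a log2 difference below 0. The separation of the remaining sum is therefore no result.

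At the other end, several cytosolic genes had differences near 0. Tars, the threonine enzyme, had a log2 difference of 0.01 with a 95% interval of -0.14 to 0.16, and Wars, the tryptophan enzyme, which interferon gamma is known to induce, had 0.02 (-0.12 to 0.15). Wars values ran from 1068 to 1104 in WT and from 1060 to 1162 in cKO. Farsa and Farsb, the subunits of the phenylalanine enzyme, gave 0.05 and 0.09, and Cars, the cysteine enzyme, 0.08. The remaining cytosolic genes Gars, Nars and Sars gave 0.10 to 0.12. By structural class, the 10 class I genes had a median of 0.16 (Eprs, which holds both classes, counted here) and the 10 class II genes 0.12, with 1 call each.

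**Figure D2:**
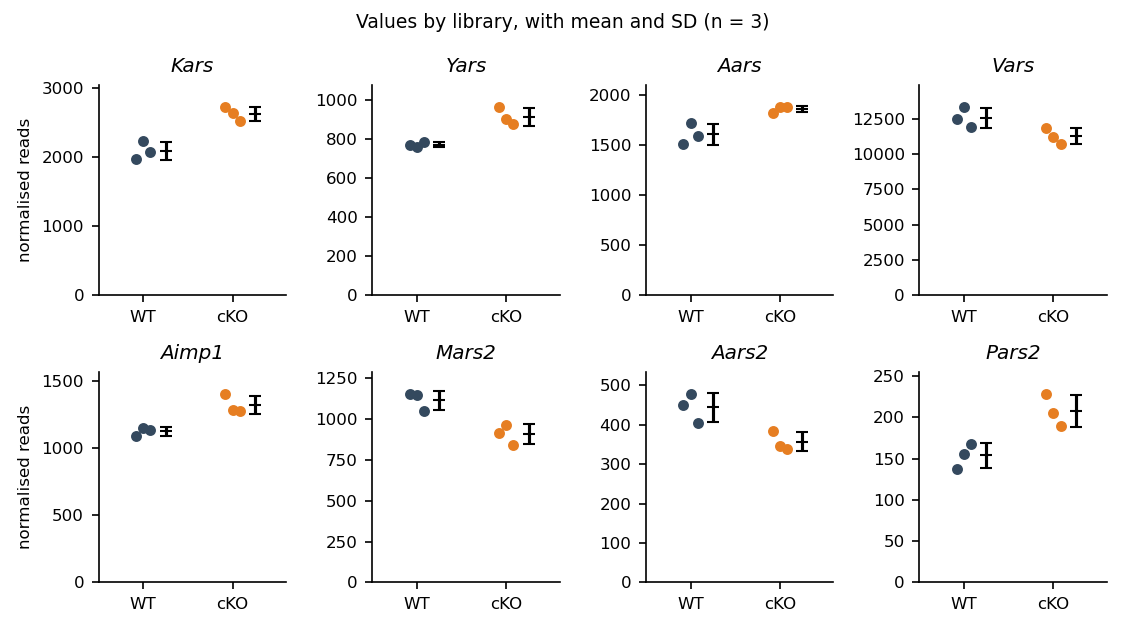
Normalised reads in each of 3 WT (dark) and 3 cKO (orange) libraries for 8 genes, with the mean and SD beside the points and each axis starting at 0. The groups are separate in every panel, but the 8 genes were chosen with their values known, so this separation is no result. Among all genes 15.9% had all cKO values above all WT values and 15.6% had all below. The steps are small: Kars, with the highest log2 difference among the cytosolic genes, rose from a mean of 2095 to 2632.

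The promoters of the members were searched for the element of the stress response named above. ATF4 with its partners binds a C/EBP-ATF response element, whose core TGATGNAA (TTNCATCA on the other strand) was searched for on both strands in the RefSeq promoter windows of build GRCm38.p6, from 250 bases before to 50 after each start. Windows were found for 13 cytosolic and 14 mitochondrial genes, that of Mars under its newer symbol Mars1. Of the cytosolic genes 5 held the core, namely Aars, Gars, Iars, Tars and Yars, of the mitochondrial genes 0, and of all 27025 genes in the table of windows 4.51%. For each gene the match nearest to the start is shown, since all of these begin within 30 bases of it, printed 5′ to 3′ along the strand of the gene, with the core in capitals.
Aars, plus strand, chr8:111033840-111033869: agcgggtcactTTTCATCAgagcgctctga
Gars, plus strand, chr6:55037960-55037989: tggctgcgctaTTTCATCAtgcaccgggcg
Iars, plus strand, chr13:49682126-49682155: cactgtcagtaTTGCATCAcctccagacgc
Tars, minus strand, chr15:11399655-11399684: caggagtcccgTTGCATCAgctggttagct
Yars, plus strand, chr4:129189895-129189924: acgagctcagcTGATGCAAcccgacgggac
The 5 genes with the core had log2 differences from 0.01 (Tars) to 0.24 (Yars), with a median of 0.13. The 8 cytosolic genes with a window but without the core ran from 0.05 to 0.33, with a median of 0.15, and Kars was among them. The ranges overlap in part, with Tars below and Kars above the range of the other set. A match is only a run of letters and shows no binding.

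Mitochondrial synthetase genes had differences in both directions. Of the 17 genes 11 had a log2 difference above 0 and 6 below, with a median of 0.03. Mars2 fell and none rose, in limma, edgeR and DESeq2 alike, and at an unadjusted p below 0.05, 2 were higher and 3 lower. In 2 genes (Pars2 and Cars2) all cKO values lay above all WT values and in 3 (Aars2, Mars2 and Nars2) all lay below. The share above 0 was 64.7%, beside 49.8% of all genes, and the other counts are near the background shares given above. The difference between the cytosolic and mitochondrial genes as groups was not tested.

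Mars2 encodes the mitochondrial methionine enzyme. It had 1153, 1146 and 1048 normalised reads in WT and 918, 968 and 842 in cKO, all cKO values below all WT values. The log2 difference was -0.30 ± 0.07 (limma adjusted p = 0.0296), a ratio of 0.729 to 0.911 at 95%. The call held in every alternative that kept all 6 libraries, but among those that left out 1 library it held only without cKO replicate 2, with adjusted p of 0.0545 to 0.114 in the other 5. Its cytosolic counterpart Mars lay in the other direction at 0.16 ± 0.07 (adjusted p = 0.151).

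Aars2, the mitochondrial alanine enzyme, had 449, 477 and 405 normalised reads in WT and 384, 347 and 339 in cKO (-0.31 ± 0.10, limma adjusted p = 0.0613). Nars2, for asparagine, had 338, 320 and 307 in WT and 289, 252 and 277 in cKO (-0.24 ± 0.10, adjusted p = 0.148). Pars2, the proline enzyme and the least abundant member per kilobase of principal transcript, had the highest log2 difference of all 37 genes. Its values were 138, 156 and 168 in WT and 228, 205 and 190 in cKO (0.43 ± 0.13, adjusted p = 0.0611). All 3 genes separated the groups, and none passed in any of the 16 alternatives. Cars2 had 1123, 1058 and 1141 against 1313, 1185 and 1277 (0.18 ± 0.06, adjusted p = 0.0979).

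Other mitochondrial genes overlapped between groups. Fars2 gave 0.25, Rars2, Yars2 and Sars2 0.13, 0.09 and 0.07, Iars2, Wars2 and Hars2 0.03, 0.03 and 0.02, and Tars2, Ears2 and Vars2 -0.03, -0.07 and -0.08. Ears2 charges the mitochondrial glutamate tRNA and also the glutamine tRNA, whose amino acid is then converted by an amidotransferase of Gatb, Gatc and Qrsl1. These had log2 differences of -0.0043, 0.06 and -0.02 (adjusted p of 0.987, 0.66 and 0.905). Iars2 shares 22.9% of its exon bases with Rab3gap2 on the other strand, so part of its reads may be those of its neighbour.

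Libraries of 1 group also differed from each other across many members. Of the 20 cytosolic genes, WT replicate 1 was the lowest WT library for 14 and WT replicate 2 the highest for 13. Among the cKO libraries 13 were highest in replicate 1 and 11 lowest in replicate 3. Such counts were not made over all genes, so they are not shown to be particular to the synthetases. The median of the cytosolic genes, centred over the 6 libraries on the log2 scale, was -0.12, -0.02 and -0.07 for the WT libraries in order and 0.11, 0.05 and 0.02 for the cKO libraries. WT replicate 2 and cKO replicate 3 therefore lay closer to each other than WT replicate 2 did to WT replicate 1. The log2 median of all genes tested, relative to the mean of the 6 library medians, was -0.02, 0.02 and 0.008 for the WT libraries. For the cKO libraries it was -0.003, 0.004 and -0.007. The median cytosolic log2 difference was 0.12 without WT replicate 1 and 0.10 without cKO replicate 1. Lars2 varied widely within groups, with 6517, 5116 and 6415 normalised reads in WT and 8445, 6214 and 5643 in cKO, and its log2 difference of 0.16 ± 0.13 (adjusted p = 0.495) turned to -0.01 without cKO replicate 1.

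Levels between genes were compared per kilobase of the principal GENCODE M21 transcript, in WT. The median was 589 normalised reads per kilobase for the cytosolic genes and 230 for the mitochondrial ones. Vars led the cytosolic genes at 3040 ± 175 (SD, n = 3), followed by Kars at 1043 ± 64.7 and Dars, the aspartate enzyme, at 943 ± 27.3. Cars (223 ± 14.8), Yars (266 ± 4.92) and Aars (279 ± 18.3) were lowest. Dars itself had 1988, 2105 and 2064 normalised reads in WT and 2504, 2145 and 2188 in cKO, while Cars had 762, 668 and 730 against 760, 832 and 698. Among the mitochondrial genes Lars2 (1545 ± 201), Tars2 (867 ± 32.8) and Cars2 (582 ± 22.9) were highest and Pars2 (70.4 ± 6.86), Wars2 (76.8 ± 4.36) and Nars2 (85.2 ± 4.12) lowest. Tars2 had 2149, 2099 and 1995 normalised reads in WT and 2205, 1843 and 2101 in cKO, and Wars2 334, 322 and 360 against 374, 318 and 347. Per kilobase of all exons of the gene, Vars (2242) and Lars2 (543) still led their groups, but other places in the order changed. Kars (469) then stood below Nars (543), Sars (478) and Dars (471), and Cars2 (153) below Tars2 (300), Hars2 (260), Rars2 (227), Iars2 (181) and Vars2 (165). Nars2 (46.2) was then lower than Pars2 (49.8).

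For 13 amino acids the levels of a cytosolic enzyme and its partner with the suffix 2 were set side by side. The cytosolic gene had the higher level per kilobase in 10 of these pairs, up to 14.9 times for valine and 10.1 times for asparagine. The order was turned for leucine, threonine and cysteine, where the ratios of the cytosolic to the mitochondrial level were 0.257, 0.418 and 0.383. The log2 difference between cKO and WT was higher for the cytosolic member in 10 of the 13 pairs, a description that was not tested.

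**Figure D3:**
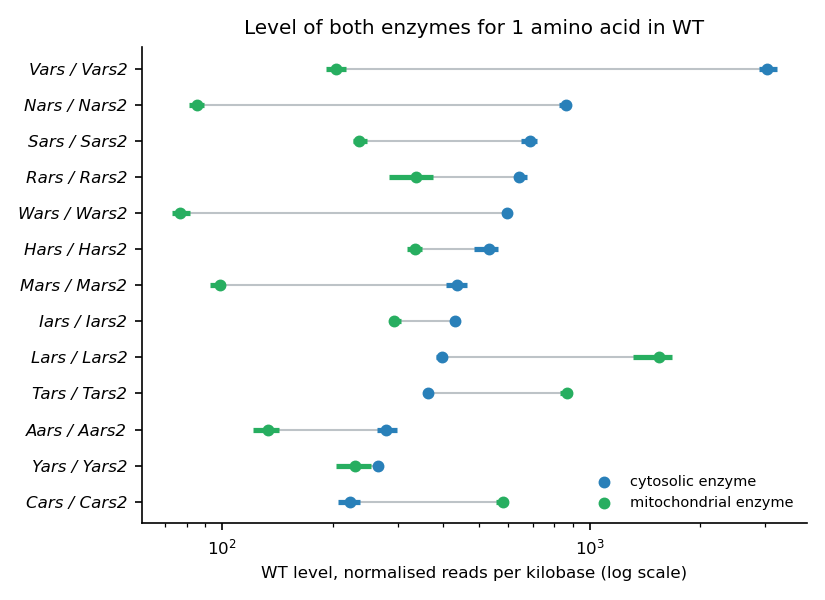
WT level of the cytosolic (blue) and mitochondrial (green) enzyme for each of 13 amino acids, in normalised reads per kilobase on a log scale. Points are means of 3 WT libraries and thick bars span the lowest to the highest library. Blue lies to the right of green in all pairs but those of leucine, threonine and cysteine.

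Beyond charging, tRNA is made by RNA polymerase III, trimmed and modified, and delivered to the ribosome by elongation factors. Of 6 elongation factor genes that take up charged tRNA or recycle the factors that do, Eef1b2, an exchange factor subunit, rose, with 10076, 11749 and 10811 normalised reads in WT and 14338, 12903 and 13454 in cKO (0.32 ± 0.07, limma adjusted p = 0.0172). It lost its call in 3 of the 16 alternatives (highest adjusted p = 0.0709). In edgeR and in DESeq2 2 of the 6 rose. Of the 14855 genes tested 5.08% rose in limma, 739 in edgeR and 825 in DESeq2. Eef1a1, which brings charged tRNA to the ribosome, had 167153, 179938 and 175802 normalised reads in WT and 209942, 198212 and 203815 in cKO, with no overlap. Its log2 difference of 0.23 ± 0.08 did not pass in limma (adjusted p = 0.107), and it was called in 3 of the 16 alternatives, with adjusted p from 0.0026 to 0.267. Of 46 genes of tRNA maturation, modification and export 0 rose and 0 fell in limma (4 higher and 1 lower at an unadjusted p below 0.05), with 1 rise each in edgeR and DESeq2 and a median of 0.02. Over all genes 13.5% were higher and 13.3% lower at that unadjusted threshold, which also holds for the next lists. Of 22 genes of RNA polymerase III and its factors 0 were called by limma, edgeR or DESeq2 (3 higher and 2 lower at an unadjusted p below 0.05), with a median of -0.01. Among 13 accessory or synthetase-like genes outside the rule, again 0 were called by the 3 tools (0 higher and 2 lower at an unadjusted p below 0.05). Of these 13 genes 11 lay below 0, with a median of -0.06, where 7450 of the 14855 genes tested lay below 0. Tarsl2, a second cytosolic threonine enzyme, was one of the lower 2, with 188, 216 and 170 normalised reads in WT and 119, 166 and 136 in cKO (-0.45 ± 0.15, adjusted p = 0.0905). It was picked out after its values were seen.

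Stress sensor genes and ATF4 targets outside the synthetases went in both directions, 5 up and 4 down of 30 tested, with a median of 0.08. Over all genes 5.08% rose and 4.97% fell. The 5 include the sensor kinase gene Eif2ak2 (0.25 ± 0.06, limma adjusted p = 0.031), while the sensor kinase gene Eif2ak4 was not called (-0.17 ± 0.06, limma adjusted p = 0.077). Asns, asparagine synthetase, rose from 42.7 ± 6.99 to 112 ± 29.7 normalised reads (1.36 ± 0.22, limma adjusted p = 0.00566). Cebpb, a partner of ATF4, rose by 0.53 ± 0.08 and Ddit4, an inhibitor of mTORC1, by 0.55 ± 0.10 (adjusted p of 0.00429 and 0.00735). Slc38a2, a neutral amino acid transporter, fell from 5118 ± 741 to 3539 ± 305 (-0.53 ± 0.10, adjusted p = 0.00928). Atf4 itself, named after its values were seen, fell from 5539 ± 84.3 to 4734 ± 123 (-0.23 ± 0.05, adjusted p = 0.0194). Over the 6 libraries the genes whose log2 values followed the mean of the cytosolic synthetases most closely were Ddit4 (Pearson r of 0.997), Utp18 (0.997), Rmi1 (0.993), Nhp2 (0.993) and Gm20735 (0.991). These are the highest of all other genes in only 6 libraries, which share their library scaling and the difference between the groups, and are given as a description.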

How the data were processed

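RNA of 6 flow-sorted marginal zone B cell samples was sequenced. The submitters' processing notes name STAR 2.5.2b, Trimmomatic 0.36, bcl2fastq 2.17 and mm9. How reads were counted, with which annotation and strand setting, is not given in the sources used. Each deposited value is a signal, a read count that the authors divided by 1 factor per library: 100% of the values in each library were whole multiples of 1 read (within 0.02 of a read), worth 0.8914 to 1.098. The smallest value of cKO replicate 1 was 2 reads. No gene had fewer than 61 recovered reads in all.

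GENCODE M21 named 14808 of the identifiers. The test was limma 3.58.1 in R 4.3.3 (eBayes with a trend, two-sided) on log2(deposited value + 1), genotype as the only term, for the 14855 genes with a mean of at least 10, with Benjamini-Hochberg adjustment over all of them and a threshold of 0.05. On that scale changes of low genes are understated. Alternatives were edgeR 4.0.16 and DESeq2 1.42.0 on the recovered reads, pseudocounts of 5 and 0.5, no filter or a mean of 100, 2 rescalings, robust moderation, the replicate block and leaving out each library. The fits were tried on simulated counts with the same spread set for all genes, which does not cover the differences between libraries of a group seen here.

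Values in every library were given for members past the threshold, the 3 smallest adjusted p in each compartment, the 3 highest and lowest levels per length, the scaffold genes and the largest separated differences. The members and lists were chosen with earlier results of these data known. Pairs of libraries of 1 group differed by more than sampling noise (chi-square per gene of 6.37 to 12.7). Overlaps of exons come from GENCODE M21 and promoter windows from RefSeq, both on GRCm38, which differs from the build named in the notes. The values of 1 mitochondrial synthetase, 1 B cell marker list and 1 sequence match are not reported here, though the gene stays in the counts.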

Additional observations from a re-analysis of the deposited data

How the results depend on the processing

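Of the 592 values of the 37 genes over 16 alternatives, 559 kept their direction and their side of the threshold. The number of cytosolic genes that rose, 2 in the analysis as reported, was 1 with DESeq2, 1 after rescaling without immunoglobulin genes, 4 after rescaling to equal medians, 4 with robust moderation and 1 to 2 on leaving out a library, and Kars was among them each time. The number of mitochondrial genes that fell, 1 as reported, was 0 to 1 on leaving out a library. Over all genes, leaving out a library gave 247 to 787 rises and 221 to 943 falls. The median log2 difference ranged from 0.0977 to 0.1748 for the cytosolic and from -0.0066 to 0.0742 for the mitochondrial genes over those fits. The cause of these shifts was not tested.

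Directions turned for 6 genes. Tars gave -0.0052 after rescaling without immunoglobulin genes and -0.0523 to 0.0613 on leaving out a library. In the same fits Hars2 gave -0.0125 to 0.0561, Lars2 -0.0141 to 0.2766, Tars2 -0.0799 to 0.0495, Wars -0.0245 to 0.0416 and Wars2 -0.0264 to 0.0884.

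The labels do not say whether the replicate numbers pair the libraries. Deviations of same-numbered libraries from their group means correlated at -0.075, -0.02 and 0.147 across genes. Those of differently numbered libraries ran from -0.207 to 0.196, so these values cannot decide whether the numbers pair libraries. With the number as a block, 767 genes rose and 784 fell, and Aars (0.048) and Hars (0.0488) were called while Yars (0.0545) was not. Every member had at least 126 reads in every library, and 3 libraries per group limit the precision.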
